A study of Mus musculus with 12 samples.

Results

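Neuroendocrine cell genes that the study did not name were examined in RNA-Seq of whole lungs: *Calca*, *Grp*, *Scg5*, *Resp18*, *Syp*, *Insm1*, *Pcsk1*, *Ddc* and *Piezo2*. They were taken by gene symbol, and all 9 were found among the 55487 genes of the count table. The lungs came from C57BL/6J mice with the genotype miR-30a-/-, in which the *miR-30a* gene was deleted with CRISPR, and every group carried this deletion. Pups breathed 95% oxygen (hyperoxia) or room air from postnatal day (PND) 1 to PND 5, and lungs were taken on PND 21 from 3 females and 3 males of each exposure, 12 mice in all. Wild-type lungs were not analysed here, so no value below shows an effect of the deletion itself.

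Pulmonary neuroendocrine cells are rare airway epithelial cells, partly gathered in innervated clusters at branch points. They sense oxygen and stretch, and they release neuropeptides and amines from dense core granules onto nerves, vessels and immune cells. Their products first enter the granules as precursors that prohormone convertases cleave. More of these cells have been described in the lungs of infants with chronic lung disease. In whole lung, fewer such cells and less RNA per cell cannot be told apart.

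Since the microRNA was deleted in every mouse, its sequence is given with the one matching site found in the 9 genes. The mature miR-30a-5p lies on chromosome 1 of GRCm38 (mm10) from 23272274 to 23272295 on the forward strand, and the capitals mark its seed, bases 2 to 8 (RefSeq, GRCm38.p6).
mmu-miR-30a-5p: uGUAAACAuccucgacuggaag
The complement of the seed, TGTTTAC, was searched in the 3' untranslated region of 1 transcript per gene, on the transcript strand. It occurred in *Pcsk1* (1 site, at base 2038 of 2542) and in no other of the 9 genes. Of 20926 genes with such a region 12.6% held it, so that 1 of 9 was near the share of all genes. *Pcsk1* had the longest region of the 9 genes, followed by *Syp* with 1424 bases. The site is shown with 10 bases on each side and the match in capitals.
Pcsk1 site: ttaaatgaaaTGTTTACttttatagca

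The counts of a lung summed to 8763033 to 16741694 over all genes. Levels are given as CPM, counts scaled to a common normalized library size, on which 3 counts, the limit that a count of 0 allows, corresponded to 0.191 to 0.327 CPM. Such limits cover counting error only. The lung markers were present, with *Sftpc* at a mean of 3210 CPM and *Scgb1a1* at 5627 CPM. Olfactory and vomeronasal receptor genes, 1473 genes that most lung cells are not known to use, together took 0.404% to 0.930% of the counts of a lung, which is called the receptor share. One room air male stood apart by its skeletal muscle markers, which summed to 2184 CPM against at most 183 CPM in every other lung.

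The neuroendocrine genes were measured at low levels. Raw counts per lung ranged from 26 to 55 for *Insm1*, 33 to 58 for *Resp18*, 42 to 86 for *Scg5*, 42 to 90 for *Calca* and 58 to 113 for *Grp*. They ranged from 89 to 138 for *Pcsk1*, 91 to 286 for *Syp*, 209 to 333 for *Ddc* and 1007 to 2877 for *Piezo2*. The background of each gene was estimated from its exon length and the median reads per kilobase on receptor genes in the same lung. It amounted to 13.6% of the summed counts for *Piezo2*, 25.1% for *Ddc*, 25.6% for *Grp*, 32.2% for *Resp18*, 34.5% for *Scg5*, 39.0% for *Calca*, 43.2% for *Syp*, 75.2% for *Pcsk1* and 108% for *Insm1*. Thus *Piezo2* kept most of its reads and *Insm1* kept none on balance. After subtraction, *Insm1* had under 3 counts in 9 of the 12 lungs. It kept 7.34 counts in room air male 4, 12.6 in room air female 5 and 19.7 in hyperoxia-exposed male 1. The limit of 3 counts holds for a count of 0 and does not cover the error of a subtracted value. Summed over the lungs, its expression was not seen above the estimated background.

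On the scale of CPM per kilobase of exon (RPKM, before subtraction), the order was *Piezo2* with a mean of 8.50 (n = 12), *Ddc* with 4.74, *Grp* with 4.61, *Resp18* with 3.66, *Scg5* with 3.45, *Calca* with 3.06, *Syp* with 2.70, *Pcsk1* with 1.58 and *Insm1* with 1.10. The range of *Piezo2* over lungs, 6.39 to 10.8 RPKM, lay above the range of *Ddc*, 3.82 to 6.20 RPKM. All other neighbours in this order overlapped in their ranges. Receptor genes had a median of 1.21 RPKM on the same scale, with 0.931 and 1.56 RPKM as 25th and 75th percentiles over genes. Of the 1473 receptor genes, 904 lay above *Insm1*, 347 above *Pcsk1* and 0 above *Piezo2*.

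Genes known mainly from other organs gave a further reference. The 7 thyroid markers had means of 2.41 to 4.89 RPKM, with *Slc5a5*, the thyroid iodide transporter, at 4.89 and *Duox2*, an oxidase of thyroid hormone synthesis that is also known from airway epithelium, at 4.33. The 8 retina markers, a list added after the values were seen, had means of 2.47 to 4.31 RPKM. *Calca*, *Grp*, *Scg5*, *Resp18*, *Syp* and *Ddc* lay within the range of the thyroid markers, *Pcsk1* and *Insm1* lay below both lists and *Piezo2* lay above both. The lists also differed in sequence composition. The GC content of the longest transcript had a median of 39.1% over receptor genes, against 48.9% over the 9 genes, 52.2% over the thyroid markers and 49.3% over the retina markers. Within the 9 genes, *Insm1* had the highest GC content (62.0%) at the lowest level, and *Piezo2* had 49.96% at the highest level. The part of GC content in the levels was not tested.

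**Figure D1:**
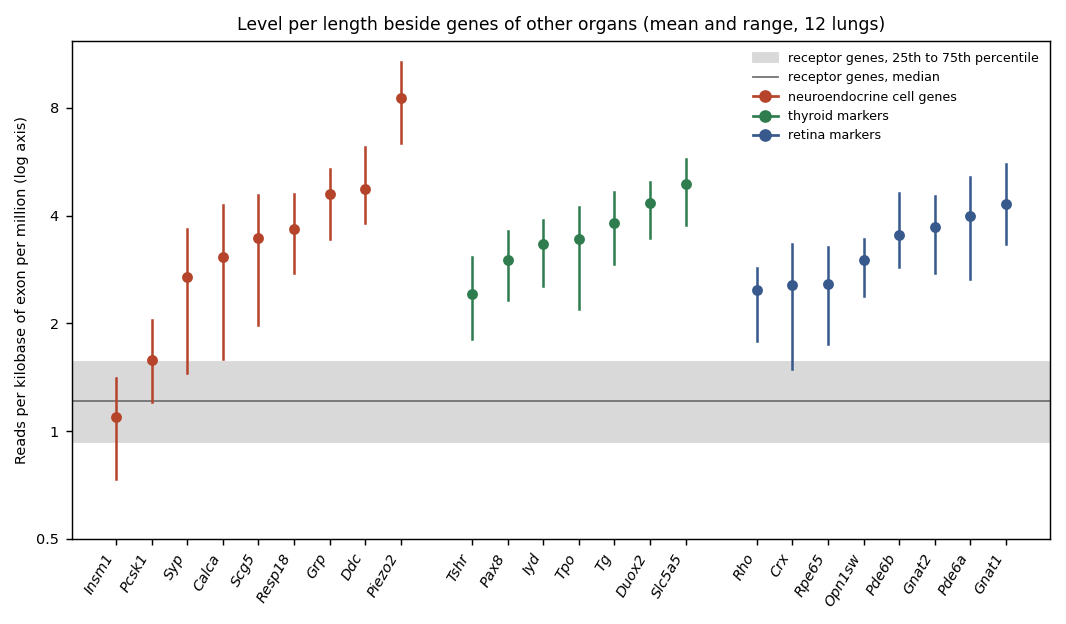
Mean level (points) and range over 12 lungs (bars) in CPM per kilobase of exon (RPKM), on a log axis, for the 9 neuroendocrine cell genes, 7 thyroid markers and 8 retina markers. The grey band and line give the 25th to 75th percentile and the median over receptor genes; *Piezo2* lies above every thyroid and retina marker, and the mean of *Insm1* lies within the grey band.

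Hyperoxia was compared with room air in each sex and over both sexes. A gene counted as called when edgeR's quasi-likelihood test gave it an adjusted p (Benjamini-Hochberg, over 45828 genes) below 0.05 together with a change of more than 1.5-fold. The comparison over both sexes uses the same lungs as those within a sex. Among the 9 neuroendocrine genes, 0 were called over both sexes, where 0.0415% of all genes were called. In the females 0 were called (0.00218% of all genes), and in the males 0 were called (0% of all genes). The difference between the sexes in their response, tested as an interaction, called 0 of the 9 (0% of all genes). DESeq2 called 0 of the 5 genes to which it gave an adjusted p over both sexes, where it gave none to *Calca*, *Scg5*, *Resp18* and *Insm1* and called 0.200% of all genes with one. In the other comparisons all 9 had an adjusted p and 0 were called, against 0.0961% of all genes in the females, 0% in the males and 0% for the interaction. Over both sexes 6 of the 9 genes had a log2 change above 0, with a median of 0.061, and 56.0% of all genes did, with a median of 0.031. Without adjustment, 0 of the 9 had a p under 0.05 with edgeR over both sexes (5.20% of all genes), in the females (12.6%) and for the interaction (8.46%), and 1 of the 9 did in the males (2.70%), which was *Syp*. With DESeq2 1 of the 9 did in each comparison, namely *Piezo2* over both sexes (4.09% of all genes) and in the females (12.2%), and *Syp* in the males (2.19%) and for the interaction (7.49%). Over the edgeR alternatives with all lungs kept, 0 to 3 of the 9 did over both sexes (4.53% to 18.1% of all genes), 0 to 1 in the females (5.51% to 30.7%), 1 to 3 in the males (2.08% to 9.54%) and 0 to 3 for the interaction (4.37% to 26.7%). These were *Syp*, *Piezo2*, *Ddc* and *Pcsk1*, and in the females *Piezo2* alone, save with a block for same-numbered lungs. That fit gave *Calca* in the females instead. *Insm1* gave no value where background was subtracted. The groups of a sex overlapped in every gene except *Syp* in the males and *Piezo2* in the females.

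**Figure D2:**
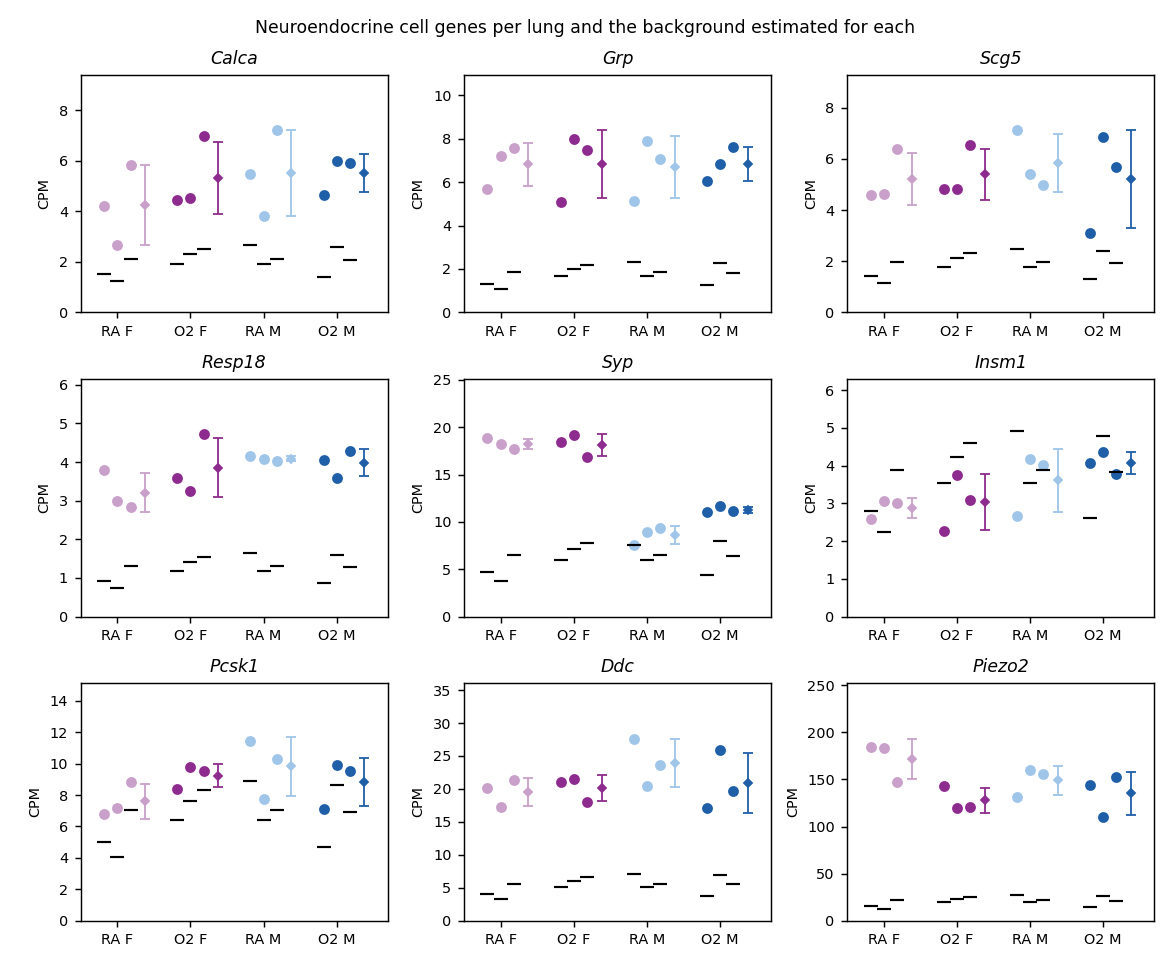
Level (CPM) of each gene in 12 lungs, with room air (RA) and hyperoxia (O2) in females (F) and males (M). Circles are lungs, diamonds with bars are means ± SD (n = 3), and short black lines give the background estimated for the same lung; *Syp* is higher in all females than in all males, and for *Insm1* the lines lie at or above the circles in most lungs.

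The neuropeptide genes are *Calca*, which encodes calcitonin and calcitonin gene-related peptide (chromosome 7 from 114631478 to 114636357), and *Grp*, which encodes gastrin-releasing peptide (chromosome 18 from 65872820 to 65886596). *Calca* stood at 4.46, 4.54 and 6.96 CPM in hyperoxia-exposed females and at 4.20, 2.67 and 5.85 CPM in room air females. In males it stood at 4.65, 5.99 and 5.91 CPM after hyperoxia and at 5.48, 3.83 and 7.23 CPM in room air. The exposures overlapped in both sexes, and the lowest lung was a room air female. The log2 fold change of *Calca* was 0.34 (SE 0.28) in females and −0.0076 (SE 0.27) in males, with adjusted p of 0.548 and 1.00 (edgeR). The female value was −0.083 with the receptor share in the model (adjusted p = 0.998, edgeR). It was 0.093 without room air female 5, 0.10 without hyperoxia-exposed female 5 and 0.63 without room air female 6, with adjusted p of 0.966, 0.928 and 0.179 (edgeR). *Grp* stood between 5.07 and 7.99 CPM over all lungs, and its log2 fold change over both sexes was 0.017 (SE 0.15, adjusted p = 0.994, edgeR), with a direction that turned with TMM normalization.

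The genes of granules and prohormone processing were *Scg5*, which encodes a chaperone of a prohormone convertase (chromosome 2 from 113776362 to 113829121), *Pcsk1*, which encodes a prohormone convertase (chromosome 13 from 75089826 to 75134861), and *Resp18*, which encodes a protein of endocrine secretory granules (chromosome 1 from 75272199 to 75278415). *Pcsk1* stood at 8.40, 9.76 and 9.54 CPM in hyperoxia-exposed females and at 6.77, 7.19 and 8.85 CPM in room air females. In males *Pcsk1* stood at 7.09, 9.91 and 9.53 CPM after hyperoxia and at 11.5, 7.74 and 10.3 CPM in room air. In each sex the exposures overlapped, in the females through the lowest hyperoxia-exposed and the highest room air lung. Its log2 fold change was 0.28 (SE 0.19) in females and −0.16 (SE 0.19) in males, with adjusted p of 0.485 and 1.00, and the interaction had an adjusted p of 0.580 (edgeR). After background was subtracted, the female value was −0.07, and −0.0010 once the receptor share entered the model. *Scg5* ranged from 3.10 to 7.14 CPM, both ends in males, and had a log2 fold change of −0.063 over both sexes (SE 0.18, adjusted p = 0.971, edgeR). *Resp18* ranged from 2.84 to 4.73 CPM, both ends in females, and had a log2 fold change of 0.12 (SE 0.18, adjusted p = 0.946, edgeR). For *Resp18*, 40 exon bases overlap the antisense gene *Gm28902*, which had 4 to 18 counts per lung.

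*Insm1* encodes a zinc finger transcription factor needed for endocrine and neuroendocrine differentiation (chromosome 2 from 146221921 to 146225020). It stood at 2.27 to 4.35 CPM, at or near the background estimated for it, and its log2 fold change was 0.12 over both sexes (SE 0.19, adjusted p = 0.949, edgeR). *Ddc* encodes the aromatic amino acid decarboxylase that makes serotonin and dopamine (chromosome 11 from 11814101 to 11898144). In females it stood at 21.0, 21.5 and 17.96 CPM after hyperoxia and at 20.1, 17.2 and 21.4 CPM in room air. In males it stood at 17.1, 25.9 and 19.7 CPM after hyperoxia and at 27.6, 20.4 and 23.7 CPM in room air, so that both sexes overlapped between exposures. The log2 fold change of *Ddc* was −0.081 over both sexes (SE 0.11, adjusted p = 0.943, edgeR).

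*Syp* encodes synaptophysin, a membrane protein of small secretory vesicles, and was the only one of the 9 genes on the X chromosome (7638471 to 7653256). Hyperoxia-exposed males stood at 11.1, 11.6 and 11.2 CPM, and room air males at 7.55, 8.96 and 9.39 CPM. All 3 hyperoxia-exposed males thus lay above all 3 room air males, as did 2.73% of all genes. The log2 fold change was 0.38 (SE 0.15, unadjusted p = 0.017, adjusted p = 1.00, edgeR), which did not pass. Over the alternatives it ran from 0.30 to 1.32 with a smallest adjusted p of 0.195. After subtraction, *Syp* averaged 5.01 CPM after hyperoxia and 1.95 CPM in room air males (p = 0.1 by a two-sided exact permutation test, which cannot go lower with 3 lungs a group). One room air male was left with under 3 counts. The estimated background was 80.2% of the summed *Syp* counts in room air males and 54.0% in hyperoxia-exposed males. With the background taken from X-linked genes of silent families in the same lung (described with the sex comparison), it was 39.9% to 60.2% per room air male and 24.4% to 38.4% per hyperoxia-exposed male. On that scale *Syp* averaged 7.72 CPM after hyperoxia and 4.63 CPM in room air males (exact permutation test, p = 0.1), and the lowest room air male kept 3.003 CPM. In the females, *Syp* stood at 18.5, 19.1 and 16.8 CPM after hyperoxia and at 18.8, 18.2 and 17.7 CPM in room air, a log2 fold change of −0.0086 (SE 0.14, adjusted p = 0.982, edgeR). The interaction of *Syp* was −0.39 on the log2 scale (SE 0.21, adjusted p = 0.578, edgeR).

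*Syp* was higher in females than in males. It averaged 18.2 ± 0.827 CPM in females and 9.96 ± 1.59 CPM in males (SD, n = 6 each), and the lowest female, at 16.8 CPM, lay above the highest male, at 11.6 CPM. The log2 fold change was 0.88 (SE 0.10, adjusted p = 4.1e-06, edgeR), and *Syp* was the only one of the 9 genes called, where 1.22% of all genes were called. The difference held in every alternative run, with log2 values of 0.81 to 1.91 and adjusted p of at most 0.046. The groups did not overlap, as was the case, in this direction, for 0.886% of all genes.

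X-linked genes as a whole differed in the same direction. Of 1802 X-linked genes tested, 1789 were above 0 in females against males, with a median log2 value of 0.75, and 25.3% were called higher, against 0.0114% of 43775 autosomal genes. Among 87 tested X-linked genes of families not known to be used in lung, such as *Rhox*, *Mage* and *Xlr*, the median was 0.93, with 0.61 and 1.24 as 5th and 95th percentiles. All 87 were above 0, 41.4% were called higher, and 50 of them lay above *Syp*. Their read density stood at 1.08 to 1.38 times that of autosomal receptor genes in the females and at 0.550 to 0.617 times in the males. With the background of X-linked genes set to this density in each lung, *Syp* averaged 11.02 ± 1.73 CPM in females and 6.17 ± 1.95 CPM in males (SD, n = 6 each; p = 0.005 by a two-sided exact permutation test within exposure, which cannot go lower here). In the edgeR model this subtraction gave a log2 value of 0.83 (SE 0.14, adjusted p = 0.046). Of the exon bases of *Syp*, 16.8% overlap the antisense gene *Gm14703*, which had 30 to 52 counts in females and 8 to 23 in males. The part of *Gm14703* in the *Syp* difference was not tested.

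**Figure D3:**
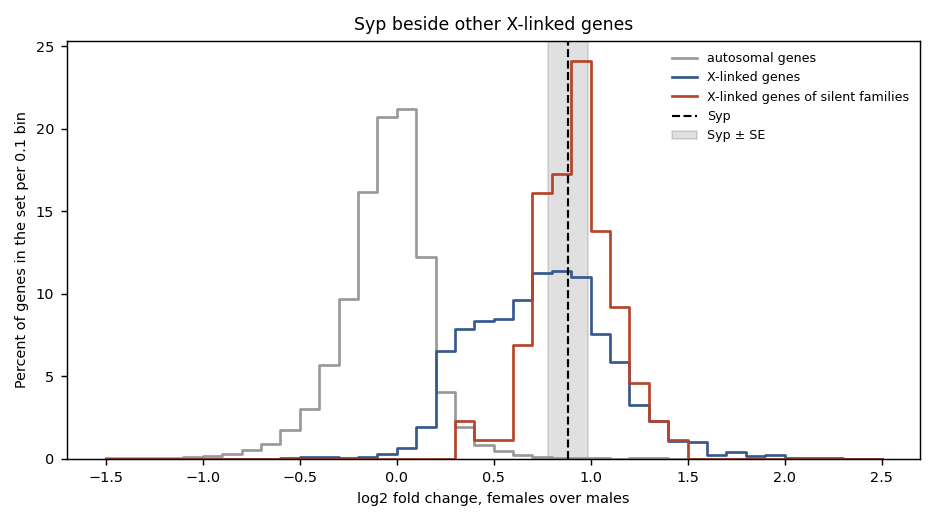
Distribution of log2 fold changes of females over males as percent of genes per bin of 0.1, for autosomal genes, X-linked genes and X-linked genes of silent families. The dashed line and grey band mark *Syp* ± SE, at 0.88 ± 0.10, inside the distribution of the X-linked silent families, whose median is 0.93.

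*Piezo2* encodes a mechanically gated cation channel of sensory neurons and other stretch-sensing cells (chromosome 18 from 63010213 to 63387183). Hyperoxia-exposed females stood at 143, 119 and 120 CPM, and room air females at 185, 183 and 147 CPM. All hyperoxia-exposed females lay below all room air females, as did 6.42% of all genes. The receptor share of the same lungs was 0.659%, 0.770% and 0.834% after hyperoxia and 0.510%, 0.404% and 0.729% in room air. Hyperoxia-exposed males stood at 144, 110 and 152 CPM and room air males at 131, 160 and 156 CPM, and these overlapped. The log2 fold change was −0.43 in females (SE 0.22, unadjusted p = 0.060, adjusted p = 0.406) and −0.14 in males (SE 0.22, adjusted p = 1.00), and the interaction had an adjusted p of 0.698 (edgeR). Over both sexes it was −0.28 (SE 0.15, adjusted p = 0.927, edgeR).

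After subtraction of background, *Piezo2* averaged 110 ± 20.7 CPM in the 6 hyperoxia-exposed lungs and 141 ± 25.9 CPM in the 6 room air lungs. This difference of −31.0 CPM had p = 0.045 (exact permutation test within sex, two-sided, not adjusted over the 9 genes, the smallest possible being 0.005). The p was 0.095 with TMM normalization, and it stayed below 0.05 without room air male 1 (0.035) or room air female 6 (0.045) but not without any other lung, and was largest without hyperoxia-exposed male 2 (0.130). Within the females the difference was −50.2 CPM (p = 0.1, the smallest possible), and within the males it was −11.7 CPM (p = 0.5, exact permutation tests). For the other 8 genes this test over both sexes gave p from 0.225 to 1.00.

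*Piezo2* was not called in any model run, but its adjusted p depended on the model. With 1 RUVr factor, the step the study used with an unstated number of factors, the adjusted p was 2.4e-05 in females and 2.3e-04 over both sexes (edgeR), at log2 values of −0.42 and −0.28 that stayed under the 1.5-fold threshold. In that fit 11.1% of all genes in females and 4.05% over both sexes were lower at an adjusted p under 0.05 at any fold. With 3 factors, the interaction of *Piezo2* also had an adjusted p under 0.05 (0.0253), where 9.13% of all genes were lower by that rule. With the receptor share in the model the female value was −0.20 (adjusted p = 0.931, edgeR). Markers of other lung cells did not pass the test in females. Their log2 values were below 0 for 6 of 6 endothelial markers (median −0.44), 6 of 6 lung epithelial markers (median −0.54) and 6 of 6 airway secretory markers (median −0.62), with a smallest adjusted p of 0.352 (edgeR). The summed level of the endothelial markers ranged from 1172 to 1540 CPM in hyperoxia-exposed females and from 1347 to 2063 CPM in room air females, which overlapped. The airway secretory sums, 4608 to 6591 CPM and 6458 to 12779 CPM, also overlapped. The lung epithelial sums, 8948 to 9854 CPM and 9966 to 19410 CPM, did not overlap, as was the case, in this direction, for 6.42% of all genes. The part of these markers in the *Piezo2* difference was not tested.

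**Figure D4:**
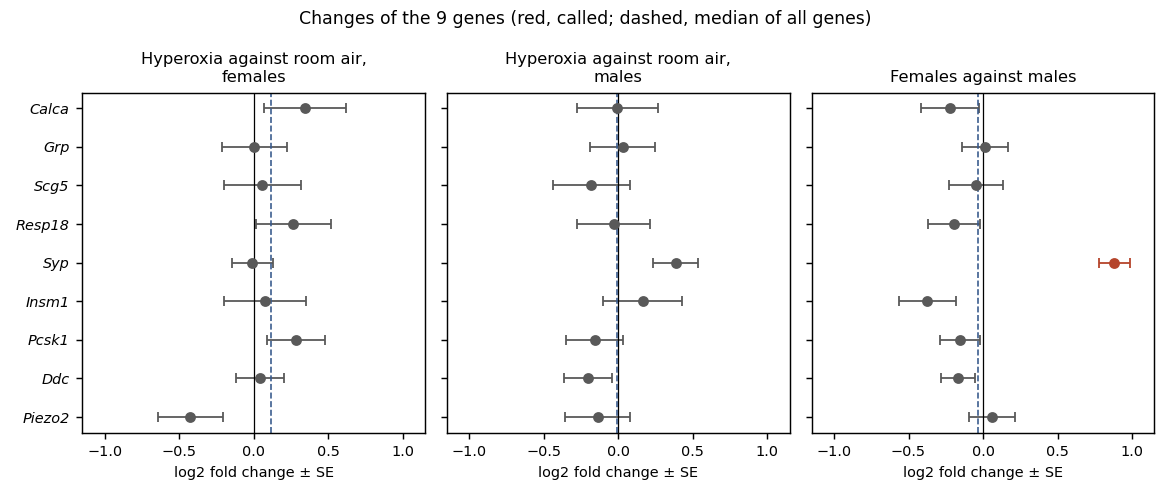
Log2 fold change ± SE (edgeR) of the 9 genes in females, in males and between the sexes, with the dashed line at the median of all genes. The single called value, in red, is *Syp* at 0.88 in females against males; in females under hyperoxia *Piezo2* lies lowest at −0.43.

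The levels of several genes followed the receptor share across the 12 lungs, as did those of many genes. Of 9 relations tested, 5 passed after Benjamini-Hochberg adjustment, by Pearson's r and by Spearman's rho. Without adjustment 4 of the 9 rose and 1 fell with the share at a permutation p under 0.05, where 29.1% of all 45828 genes rose and 19.7% fell, so that the count of the 9 genes was near that of all genes. *Pcsk1* rose with the receptor share (r = 0.896, adjusted p = 0.00090; rho = 0.902, adjusted p = 0.0018; 100000 permutations). *Scg5* (r = 0.794, rho = 0.839), *Calca* (r = 0.741, rho = 0.706) and *Ddc* (r = 0.737, rho = 0.741) also rose with it, with adjusted p of 0.0058, 0.011 and 0.011 by r (permutation test). *Piezo2*, the gene with the smallest background, fell with it (r = −0.832, rho = −0.769, adjusted p = 0.0041 by r, permutation test). Without the 2 lungs farthest from the median share, r was 0.872 for *Pcsk1*, 0.779 for *Scg5*, 0.598 for *Calca*, 0.589 for *Ddc* and −0.885 for *Piezo2*. Within the 6 females and the 6 males, r was 0.931 and 0.872 for *Pcsk1* and −0.946 and −0.682 for *Piezo2*. It was 0.689 and 0.919 for *Scg5*, 0.872 and 0.524 for *Calca* and 0.390 and 0.940 for *Ddc*, and the difference between the sexes was not tested. *Grp*, *Resp18*, *Syp* and *Insm1* had r between −0.335 and 0.282 and did not pass. Receptor share and level come from the same library, whose counts sum to a fixed total. Among the 36 pairs of the 9 genes, 0 correlations passed after adjustment (smallest adjusted p 0.118 by r and 0.1004 by rho, permutation test).

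**Figure D5:**
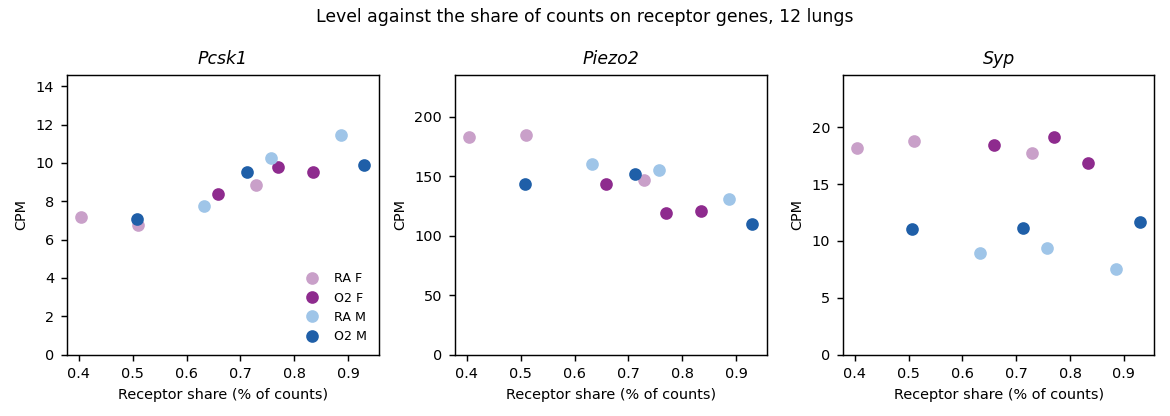
CPM of *Pcsk1*, *Piezo2* and *Syp* against the receptor share (percent of all counts) in 12 lungs, colored by room air (RA) or hyperoxia (O2) in females (F) and males (M). *Pcsk1* rises with the share (r = 0.896), *Piezo2* falls with it (r = −0.832), and *Syp* separates by sex.

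Other genes of the same pathway were counted by function, with levels given as background-subtracted RPKM. At most 0.0415% of all genes were called for hyperoxia and 1.22% between the sexes, so that lists of this size would hold few called genes. Of 15 further genes of granules and exocytosis, 0 were called in these comparisons. Among them *Vamp2*, a vesicle fusion protein, stood at 24.96 and *Pam*, which amidates neuropeptides, at 14.0. Their log2 changes were −0.48 and −0.41 in females (adjusted p = 0.390 and 0.444) and 0.13 and 0.0062 in males (adjusted p = 1.00 for both, edgeR). Of 9 genes of amine synthesis and transport 0 were called, with the X-linked amine oxidases *Maoa* at 8.12 and *Maob* at 6.36. Of 12 lineage regulators 0 were called, with *Sox4*, a transcription factor of many progenitor cells, at 17.4 and *Hes1*, a target of Notch that holds back neuroendocrine fate, at 14.0. The log2 change of *Hes1* was −0.36 in females (adjusted p = 0.399) and −0.048 in males (adjusted p = 1.00, edgeR).

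Of 12 genes for receptors of the neuroendocrine products, 0 were called for hyperoxia in either sex and 2 were called in females against males, both higher, where 1.22% of all genes and 25.3% of X-linked genes were called. These were *Grpr*, the receptor of gastrin-releasing peptide, with a log2 value of 1.18 (adjusted p = 0.0011), and *Brs3*, a related receptor, with 1.09 (adjusted p = 0.036, edgeR). Both are X-linked, and background amounted to 83.9% and 138% of their counts. With the background of X-linked genes set per lung as for *Syp*, the log2 value of *Grpr* was 2.01 (SE 0.73), larger than before, with an adjusted p of 0.962 that did not pass (edgeR). The call of *Brs3* was lost without room air male 4 or 5, room air female 6, hyperoxia-exposed male 1 or 3, or hyperoxia-exposed female 4, with an adjusted p of up to 0.135 (edgeR). *Calcrl*, a subunit of the receptor of calcitonin gene-related peptide, stood at 177 RPKM after subtraction. *Ramp1*, its partner in that receptor, stood at 3.59 RPKM, with background at 24.6% of its counts. *Ramp2*, its partner in another receptor, stood at 40.8 RPKM. The log2 changes of *Calcrl* and *Ramp2* in females were −0.55 and −0.31 (adjusted p = 0.448 and 0.556, edgeR). The 9 neuroendocrine genes that the study names were all above 0 in females, with a median log2 change of 0.39, and 0 were called. Without adjustment 3 of these 9 had a p under 0.05 (edgeR), all higher, where 12.6% of all genes did in either direction. *Olfr78* among them is an olfactory receptor gene, with background at 105% of its counts. The study, which processed the counts with ComBat-seq and RUVr, reports these 9 as higher in the hyperoxia-exposed females. The study chose them on these lungs, so that this direction is not independent evidence. For the 9 genes examined here, 7 were above 0 in females with a median of 0.056, and 60.8% of all genes were above 0, with a median of 0.11.

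Markers of other cells that can carry the same genes were summed per lung. The 8 neuron markers summed to 96.2 to 108 CPM in hyperoxia-exposed females, 95.7 to 109 CPM in room air females, 98.1 to 108 CPM in hyperoxia-exposed males and 93.3 to 104 CPM in room air males. The 7 Schwann cell markers summed to 60.1 to 63.3 CPM in hyperoxia-exposed females and to 49.4 to 58.3 CPM in room air females, which did not overlap, as was the case, in this direction, for 10.8% of all genes. After background was subtracted, these sums were 30.9 to 36.4 CPM and 32.6 to 36.4 CPM, which overlapped. In males the sums before subtraction were 50.5 to 59.9 CPM after hyperoxia and 51.5 to 82.0 CPM in room air. The 7 mast cell markers summed to 170 to 212 CPM in hyperoxia-exposed females, 187 to 252 CPM in room air females, 169 to 284 CPM in hyperoxia-exposed males and 172 to 236 CPM in room air males. The mast cell sum was mostly *Kit*, a receptor also found on other cells, at a mean of 178 CPM, while the other 6 markers averaged 2.25 to 8.64 CPM each. No marker of these lists was called in any comparison, and no marker of the 7 thyroid and 11 skeletal muscle genes was. The 7 thyroid markers summed to 128 to 138 CPM in hyperoxia-exposed females, 104 to 137 CPM in room air females, 107 to 148 CPM in hyperoxia-exposed males and 126 to 143 CPM in room air males.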

How the data were processed

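RNA-Seq of 12 whole lungs was analysed from the raw gene counts that the authors deposited. They trimmed reads with Trim Galore, aligned them with STAR to mm10 (GRCm38) and counted them with featureCounts (versions not given in the sources used here). The methods name a QIAseq kit and the labels a directional NEBNext kit, and the strand setting of the counting is not stated, so reads of overlapping antisense genes may be shared. Exon lengths and positions came from GENCODE vM21, which held 55227 of the 55487 genes.

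Counts were normalized by upper quartile and tested in edgeR 4.0.16 (R 4.3.3) with quasi-likelihood fits to the 4 groups of 3 lungs, over 45828 genes kept by its expression filter, with a threshold of 0.05 on the p adjusted by Benjamini-Hochberg and of 1.5 on the fold. The biological coefficient of variation was 0.177. On simulated counts for the comparison over both sexes (45828 genes), 193 of 200 changed genes were recovered, 100 of 100 at 4-fold and 93 of 100 at 2-fold, with 10 false calls. The changed genes were drawn from the better-counted ones, and the change applied to the whole count, background included. The recovery therefore does not measure the power for genes with much background. Single values were compared by exact permutation tests and correlations by 100000 permutations (scipy 1.17.1). Background per gene was exon length times the median reads per kilobase on 1473 receptor genes of the same lung. Per the study's methods, pups of several litters were mixed before exposure, and the labels do not give a lung's litter, so p-values measure the spread between these lungs.

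All 9 genes were named, other genes by fixed lists. The genes and lists were chosen with earlier results of these data known. Alternatives were TMM normalization, other count filters, DESeq2 1.42.0, RUVr with 1 to 3 factors (the study's number is not stated), the receptor share as covariate, background subtraction, a replicate block, and leaving out each lung. Further ones were the adjusted p alone as threshold, a model without the interaction, and fits of only the lungs of a sex. The X-linked background in the edgeR model, its male to female ratio, the share of all genes that follow the receptor share, the unadjusted p under each alternative, the retina markers and the adjusted p at any fold with RUVr were chosen after seeing the data. ComBat-seq was not repeated, and wild-type lungs were not analysed here.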

Additional observations from a re-analysis of the deposited data

How the results depend on the processing

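Of 1110 alternative values for 45 results on the 9 genes, 1015 kept their direction and their side of the threshold, 95 changed sign over 23 results, and 0 gained or lost a call. Of those that kept it, 4 over both sexes with DESeq2 had no adjusted p, so that they could not be called. Also among them are the values with the adjusted p alone as threshold. These reuse the log2 values of the main fit and could not change sign. The log2 values that changed sign, with all lungs kept, follow by setting. With TMM normalization, *Grp* was −0.0066 over both sexes and −0.040 in females. Without a filter, *Grp* was −0.0022 and −0.040 in the same comparisons, and *Calca* 0.0011 in males. With at least 10 counts in every library, *Syp* was 0.059 in females, and *Grp* was 0.047 for the interaction and −0.0035 in females against males. With DESeq2, *Grp* was −0.028 over both sexes, *Grp*, *Scg5*, *Insm1* and *Ddc* were −0.095, −0.037, −0.027 and −0.049 in females, and *Calca* was 0.0050 in males. With 1, 2 and 3 RUVr factors, *Calca* was 0.0047, 0.015 and 0.0035 in males, and with 3 factors *Grp* was −0.00066 in females. With background subtracted, *Pcsk1* was −0.17 over both sexes and −0.072 in females, *Calca* 0.020 in males and *Grp* 0.053 for the interaction. With the X-linked background of males also lowered by the ratio of males to females on X-linked genes of silent families, 0.473, these were −0.17, −0.068, 0.020 and 0.058, and *Syp* was 0.0024 in females. With it set per lung they were −0.17, −0.071, 0.018 and 0.056, and *Syp* was 0.043. With only the 6 libraries of the sex, *Syp* was 0.017 in females. With the receptor share as covariate, *Grp* and *Pcsk1* were −0.0049 and −0.046 over both sexes. In females that setting gave −0.083 for *Calca*, −0.051 for *Grp*, −0.40 for *Scg5*, 0.024 for *Syp*, −0.0010 for *Pcsk1* and −0.20 for *Ddc*, and in males 0.11 for *Calca*. It gave −0.19, −0.30 and −0.048 for the interactions of *Calca*, *Scg5* and *Ddc*, and 0.14 and −0.028 for *Scg5* and *Piezo2* in females against males. The cause was not tested.

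Same-numbered lungs did not deviate together (correlations of 0.114, −0.252 and −0.413 over 35904 genes), so the numbers were not taken as pairs. With the replicate block, *Grp* was −0.0099 and *Scg5* 0.051 over both sexes, *Grp* was −0.048 and *Insm1* −0.074 in females, and 0 of the 9 genes were called. The block moved *Calca* in females from 0.34 to 0.73 (unadjusted p = 0.040, adjusted p = 0.334, edgeR).

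Leaving out 1 lung at a time turned the sign of these log2 values. Over both sexes the ranges were −0.062 to 0.10 for *Grp*, −0.17 to 0.078 for *Scg5* and −0.0063 to 0.13 for *Pcsk1*. In females they were −0.12 to 0.18 for *Grp*, −0.10 to 0.22 for *Scg5*, −0.051 to 0.045 for *Syp*, −0.10 to 0.24 for *Insm1* and −0.043 to 0.12 for *Ddc*. In males they were −0.20 to 0.24 for *Calca*, −0.13 to 0.17 for *Grp*, −0.40 to 0.099 for *Scg5*, −0.084 to 0.041 for *Resp18* and −0.013 to 0.29 for *Insm1*. For the interaction they were −0.17 to 0.15 for *Grp*, −0.043 to 0.45 for *Scg5* and −0.27 to 0.085 for *Insm1*. In females against males they were −0.065 to 0.099 for *Grp*, −0.18 to 0.064 for *Scg5* and −0.0046 to 0.11 for *Piezo2*. The number of genes with an exact permutation p below the threshold after subtraction over both sexes, 1 (*Piezo2*), was 0 with TMM normalization and 0 to 1 without 1 lung. Depth limits *Insm1*, *Resp18*, *Scg5* and *Calca* most, with at most 90 counts in a lung.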
